A study of Oryza sativa Japonica Group with 17 samples.

Results

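OASA1 (LOC4334640) and OASB1 (LOC4336076) encode an alpha and a beta subunit of anthranilate synthase in rice. They were found by matching each gene symbol and synonym to these names. Each gene had 1 probe set that is listed for no other gene, so the account rests on 2 of the 57258 probe sets tested and on 2 of 17905 genes with a probe set of their own. The pair was chosen by measured values of these arrays: both genes had been called in the mean difference between homozygotes and null plants of 2 gs1;1 mutant lines, OASB1 as higher and OASA1 as lower. That comparison called 14.0% of all probe sets, and the differences of the pair in these lines are given here as a description, with no test.

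Anthranilate synthase opens the branch of aromatic amino acid synthesis that leads to tryptophan. It turns chorismate into anthranilate with nitrogen from the amide of glutamine, the product of glutamine synthetase. The beta subunit splits glutamine, and the alpha subunit binds chorismate and is inhibited by tryptophan. In rice, tryptophan also feeds tryptamine and serotonin, which take part in defence, and the auxin indole-3-acetic acid. OASA2 and OASB2 encode a further alpha and a further beta subunit.

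Roots of cultivar Nipponbare were measured after 18 days of water culture with 1 mM ammonium as the nitrogen source, in 17 samples on 17 arrays. Controls without a disrupted gene were wild type (n = 3), NC2373 null (n = 3) and ND8037 null (n = 3). A null plant carries no insertion and was segregated from a heterozygote of its line. The mutants were homozygotes for a disrupted OsGS1;1 in line NC2373 (NC2373 homozygotes, n = 2) or line ND8037 (ND8037 homozygotes, n = 3), marked gs1;1 in the plots, and homozygotes for a disrupted OsGS1;2 (the gs1;2 mutant, n = 3). Both genes encode cytosolic glutamine synthetase. With no segregated null among the samples, the gs1;2 mutant was compared with wild type, and other differences between these plants cannot be told apart from the loss of the gene. The series text calls the samples of a group biological replicates.

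Values are robust multi-array average (RMA) signals on the log2 scale, and every difference below is a difference of log2 signals with the standard error (SE) of the limma fit. The disrupted gene was low in each mutant, with OsGS1;2 at a difference of -5.43 and OsGS1;1 at a mean difference of -2.80 over both lines. The median signal of the 6 ND8037 arrays lay between 4.68 and 4.71 and that of the other 11 between 5.37 and 5.41, so levels are compared only within each of these array sets. Of 6 root markers, the silicon transporter gene Lsi1 stood at 13.44 ± 0.16 (SD, n = 3) in wild type, while SCR1, a regulator of the endodermis, was dim, at 4.10 ± 0.20 (SD, n = 3), and RMA gives no call on its presence. On whole roots, fewer cells that express a gene and less transcript per cell cannot be told apart.

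OASA1, the alpha subunit gene, stood lowest in NC2373 homozygotes among the 4 groups of the larger array set. Wild type samples gave 8.01, 8.35 and 8.26, and NC2373 null samples gave 8.39, 8.30 and 8.27. The gs1;2 samples gave 8.00, 8.01 and 7.80. The NC2373 homozygotes gave 7.48 and 7.64, below every sample of the other 3 groups. From the highest mean to the lowest, the order was NC2373 null, wild type, gs1;2 and NC2373 homozygotes. Samples of neighbours in this order overlapped, except those of the last 2 groups, whose means were 0.38 apart.

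OASB1, the beta subunit gene, had another order. Wild type samples gave 10.25, 10.01 and 9.54. The NC2373 homozygotes, at 9.68 and 9.84, lay inside the wild type range. The gs1;2 samples gave 8.92, 9.27 and 9.36, and the NC2373 null samples gave 8.87, 8.78 and 9.44. The order of means was thus wild type, NC2373 homozygotes, gs1;2 and NC2373 null, and the only neighbours whose samples did not overlap were the second and the third, whose means were 0.58 apart.

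**Figure D1:**
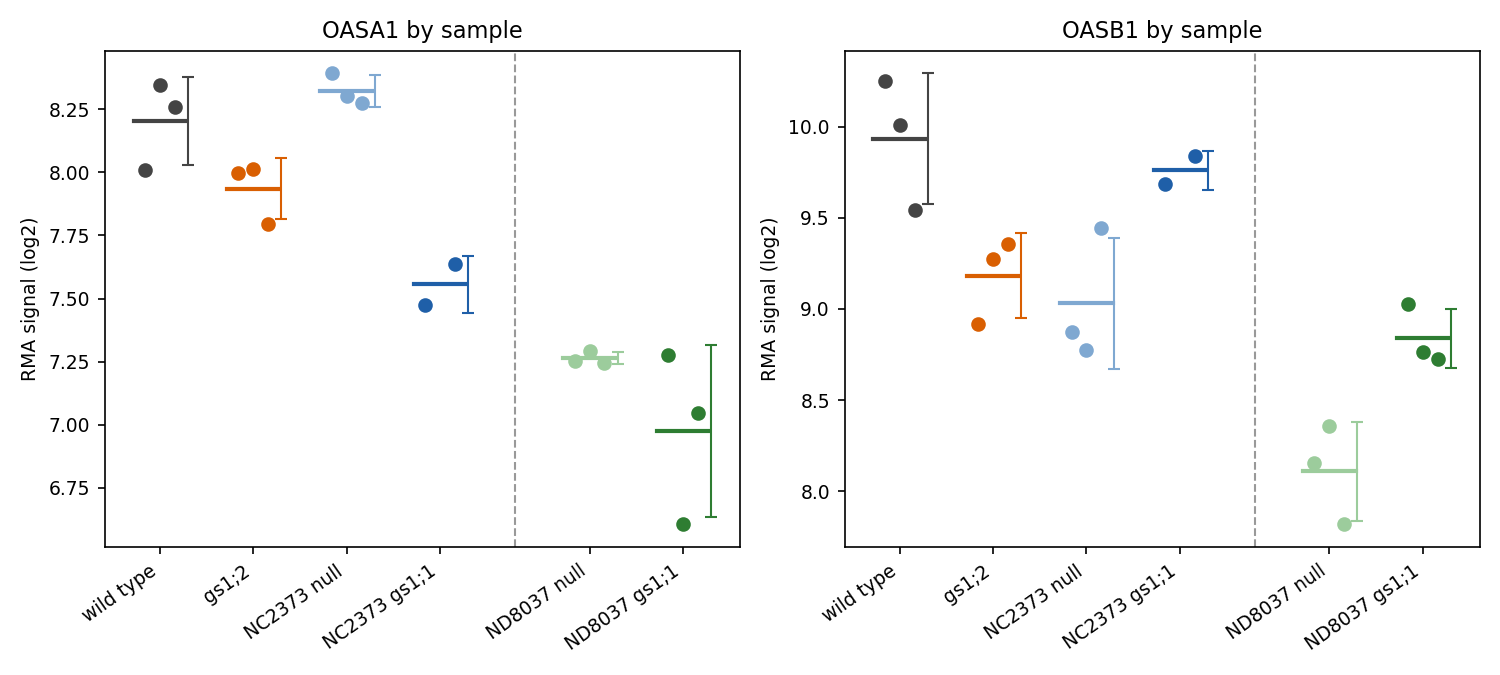
RMA signal (log2) of OASA1, left, and OASB1, right, for each sample (points) in the 6 groups, with the group mean (line) and SD (bar). The dashed line parts the ND8037 arrays, whose levels are not comparable with the others. The NC2373 homozygotes are the lowest of the first 4 groups in OASA1, between 7.48 and 7.64, and lie inside the wild type range in OASB1.

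The comparison of the gs1;2 mutant with wild type used group means outside the mean difference in which the genes had been called, so the pair was tested there. The estimate of spread was shared over all 17 arrays, those that chose the genes included. Earlier results of these data were also known when the genes were chosen. The test was thus not fully apart from the choice. OASB1 stood at 9.93 ± 0.36 (SD, n = 3) in wild type and 9.18 ± 0.23 (SD, n = 3) in the mutant. The difference was -0.75 (SE 0.202), and limma's adjusted p of 0.0514 just missed the threshold of 0.05. The 3 mutant samples lay below the 3 wild type samples without overlap, as was so for 11.7% of all probe sets. The absolute difference was exceeded by 2.68% of probe sets. OASA1 stood at 8.20 ± 0.18 (SD, n = 3) and 7.93 ± 0.12 (SD, n = 3), a difference of -0.27 (SE 0.136, limma adjusted p = 0.2986), and the groups overlapped by 1 sample each. Neither member was thus called, against 4.03% of all probe sets.

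The call on OASB1 depended on the setting. With only probe sets of a mean signal of at least 5 tested, limma's adjusted p was 0.0398, and without wild type sample 629 the difference was -0.95 (limma adjusted p = 0.0157). With only these 2 groups in the fit, which leaves out the arrays that chose the genes, the adjusted p was 0.1210, and without any one of the other 5 arrays it ran from 0.1027 to 0.1663. The 3' minus 5' signal of the actin control, a sign of RNA quality, ran from 2.00 to 2.11 in the mutant and from 1.62 to 1.93 in wild type. The log2 summed signal of 6 root markers ran from 13.35 to 13.56 in the mutant and from 13.74 to 14.13 in wild type. In every group most of this sum was Lsi1 and Lsi2 signal. Of the 6, the silicon transporter gene Lsi2 alone was called, and it fell by 0.81 (limma adjusted p = 0.0467). Lsi1 stood at 13.05 in the mutant and 13.44 in wild type, and OsCASP1 at 9.37 and 9.56. SHR1 stood at 7.29 and 7.26, QHB at 5.46 and 5.53, and SCR1 at 3.82 and 4.10. The part of these measures in the difference was not tested.

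In NC2373, the members stood apart from the null in opposite directions, as in the mean effect by which they were chosen. OASA1 went from 8.32 ± 0.06 (SD, n = 3) in the null to 7.56 ± 0.11 (SD, n = 2) in homozygotes, a difference of -0.77 (SE 0.152). OASB1 went from 9.03 ± 0.36 (SD, n = 3) to 9.76 ± 0.11 (SD, n = 2), a difference of 0.73 (SE 0.226). No homozygote lay within the range of the null in either gene, as was so in the same direction for 20.0% (lower) and 15.9% (higher) of all probe sets.

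Set against wild type, the same homozygotes lay apart in OASA1 but overlapped in OASB1. OASA1 in NC2373 homozygotes lay below wild type by nearly as much as below the null, with a difference of -0.65 (SE 0.152) and no overlap, as was so for 20.0% of all probe sets. OASB1 in NC2373 homozygotes differed from wild type by -0.17 (SE 0.226), and the samples overlapped. The null itself lay below wild type in OASB1, by a difference of -0.90 (SE 0.202) and with no overlap, as did 8.26% of all probe sets, while in OASA1 it differed from wild type by 0.12 (SE 0.136). Markers differed between these groups too. The log2 summed signal of 7 leaf markers, most of it that of CAB2R, ran from 11.51 to 12.87 in wild type. It ran from 12.89 to 13.56 in NC2373 null and from 14.40 to 14.80 in NC2373 homozygotes. The root marker sums, mostly Lsi1 and Lsi2 signal, ran from 13.25 to 13.67 in NC2373 null and from 13.17 to 13.31 in NC2373 homozygotes. Both lay below the wild type sums, 13.74 to 14.13, and the part of these measures was not tested. The comparisons of the pair share samples and are given as values without a test, since the null arrays are the controls of the effect that chose the genes.

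In ND8037, OASB1 samples gave 8.15, 8.36 and 7.82 in the null and 9.03, 8.77 and 8.72 in homozygotes. The groups did not overlap, as was so in this direction for 11.9% of all probe sets, and the difference was 0.73 (SE 0.202), close to that in NC2373. OASA1 samples gave 7.25, 7.29 and 7.25 in the null and 7.28, 6.61 and 7.05 in homozygotes, where sample 123 lay within the null range. The difference was -0.29 (SE 0.136), with an SD of 0.34 among the 3 homozygotes against 0.02 among the 3 null samples. It was -0.10 without sample 124, the lowest, and -0.44 without sample 123. Whether the OASA1 difference varied between the lines was not tested.

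**Figure D2:**
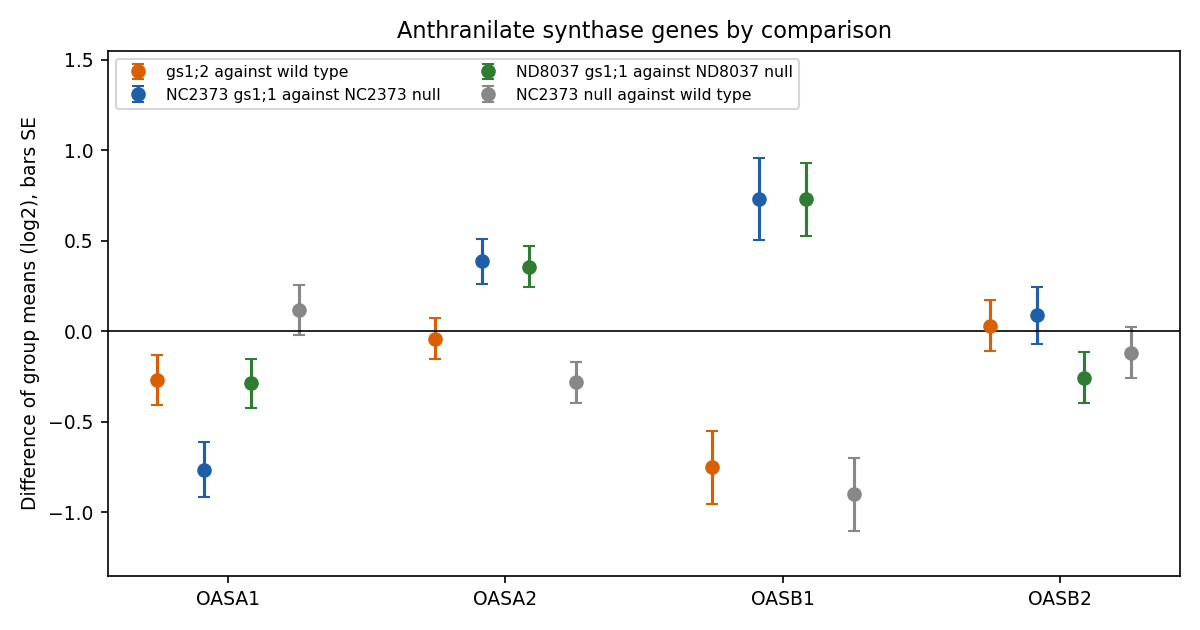
Difference of group means (log2, points) with its SE (bars) for the alpha subunit genes OASA1 and OASA2 and the beta subunit genes OASB1 and OASB2 in 4 comparisons. OASB1 lies at 0.73 in both gs1;1 lines and at -0.75 in the gs1;2 mutant, while OASB2 stays between -0.26 and 0.09.

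Other measures moved with the homozygotes. The log2 summed signal of 7 leaf and photosynthesis markers ran from 12.89 to 13.56 in NC2373 null and from 14.40 to 14.80 in NC2373 homozygotes, and from 12.66 to 13.16 and 13.56 to 14.42 in the ND8037 groups. In the mean effect of both lines 4 of these 7 markers rose and none fell, where limma called 6.87% of all probe sets higher and 7.09% lower. Of the 7, RBCS-A was dim, with group means between 2.01 and 2.52, and OsPSAG stood at 7.47 in ND8037 null and 7.34 in ND8037 homozygotes. In wild type the sum ran from 11.51 to 12.87 and in the gs1;2 mutant from 10.61 to 11.73. None of the 7 was called in that mutant, against 4.03% of all probe sets. The 6 root markers summed to between 13.25 and 13.67 in NC2373 null, 13.17 and 13.31 in NC2373 homozygotes, 13.31 and 13.37 in ND8037 null, and 12.74 and 13.13 in ND8037 homozygotes, and 1 of 6, Lsi2, fell in the mean effect (-0.52, limma adjusted p = 0.0420). On ND8037 arrays the 3' minus 5' signal of GAPDH ran from 2.19 to 2.27 in the null and from 1.91 to 2.12 in homozygotes, while that of actin ran the other way, from 3.19 to 3.29 and from 3.38 to 3.49. The part of these measures in the OASA1 and OASB1 differences was not tested.

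Pearson's r between OASA1 and OASB1 was -0.31 over the 11 arrays of the larger set and -0.38 over the 6 ND8037 arrays, a description that supports nothing, since these arrays include the homozygotes and nulls in which the pair was chosen for opposite differences, and the 6 hold no others. In the larger set the wild type sample with the highest OASB1 signal, 627, had the lowest OASA1 signal of its group.

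**Figure D3:**
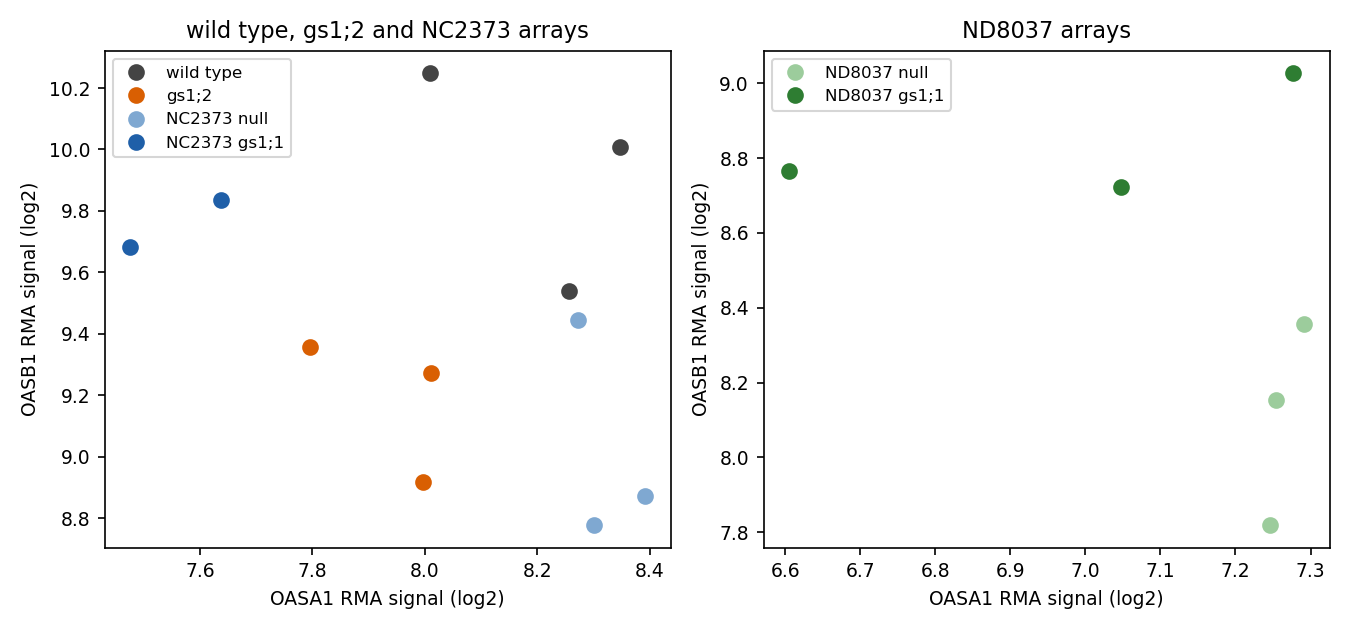
OASA1 against OASB1 signal (log2) for each sample, with the 11 arrays of wild type, gs1;2 and NC2373 on the left and the 6 ND8037 arrays on the right. In both panels the homozygotes lie above their null in OASB1, and in NC2373 they also lie to its left in OASA1.

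No gene was among the 5 most like both members. Likeness was the lower of the Pearson correlations over the 11 and over the 6 arrays, among 2137 named genes. These arrays include those that chose the pair, so the ranks partly restate that choice. For OASB1 the highest was OsWRKY24, a transcription factor of the WRKY family, with r of 0.95 and 0.92. OsWRKY24 stood at 9.23 in wild type, 8.15 in the gs1;2 mutant, 8.26 in NC2373 null and 9.21 in NC2373 homozygotes. It was followed by HSF07, a heat stress transcription factor (likeness 0.89), PCF2 of the TCP transcription factors (0.88), CIGR1, a GRAS family gene (0.88), and the protein phosphatase gene OsPP2C26 (0.86). The shikimate kinase gene SK2 ranked 18 and OASA2 ranked 27.

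For OASA1 the highest were OsSTLP5 (likeness 0.89), GEN1, a nuclease of DNA repair (0.87), xrcc1, another repair gene (0.86), GATA20, a transcription factor (0.84), and HB2 (0.82). OsSTLP5 stood at 8.73 in NC2373 null and 8.45 in NC2373 homozygotes, and xrcc1 at 7.60 and 7.13. OsGS1;1, the gene disrupted in both lines, ranked 46 for OASA1 with r of 0.86 and 0.60, and OASB1 ranked 1254. OsGS1;1 was low by disruption in the very homozygotes in which OASA1 was chosen for being lower, so that r is drawn from the values the choice used.

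The further subunit genes are the closest relatives of the pair. OASA2 is read by 2 probe sets. The brighter of them, of a type that can match several transcripts, stood at 7.85 ± 0.23 (SD, n = 3) in NC2373 null and 8.23 ± 0.01 (SD, n = 2) in homozygotes, and at 7.29 ± 0.09 (SD, n = 3) and 7.65 ± 0.18 (SD, n = 3) in the ND8037 groups. OASA2 rose in the mean effect by 0.37 (SE 0.0840, limma adjusted p = 0.0083), a direction opposite to that of OASA1. Its samples did not overlap in either line. Taken singly, that was so in this direction for 15.9% of all probe sets in NC2373 and 11.9% in ND8037. The dimmer probe set, between 2.69 and 3.81 in all samples, was not called (-0.19, limma adjusted p = 0.1327). OASB2 was not called in the mean effect (-0.08, limma adjusted p = 0.6726). In the gs1;2 mutant the difference was -0.04 for OASA2 (limma adjusted p = 0.8895) and 0.03 for OASB2 (limma adjusted p = 0.9361).

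The wider tryptophan route had 16 measured genes beside the pair. They were 2 further subunit genes, 5 shikimate pathway genes, 1 gene listed for another use of chorismate, and 8 genes that use tryptophan. No gene of the steps from anthranilate to tryptophan was among the 16, so those steps are not covered. In the gs1;2 mutant 2 of 16 fell and none rose, where limma called 2.37% of all probe sets lower and 1.67% higher. Their median difference was -0.03, against 0.02 over all probe sets. SK2, a kinase of the pathway that supplies chorismate, fell by 0.57 (SE 0.117, limma adjusted p = 0.0143), from 8.88 ± 0.24 (SD, n = 3) to 8.31 ± 0.09 (SD, n = 3). FIB, which encodes a tryptophan aminotransferase of auxin synthesis, fell by 0.76 (SE 0.173, limma adjusted p = 0.0237), from 8.23 ± 0.19 (SD, n = 3) to 7.47 ± 0.16 (SD, n = 3). SK1, another shikimate kinase, stood at -0.28 and just missed the threshold (limma adjusted p = 0.0515). Each call depended on the samples. That of SK2 ended without wild type sample 627 or 628 or mutant sample 356 (adjusted p from 0.0633 to 0.0798), or with only these groups in the fit (0.0926), and that of FIB without wild type sample 627 or 628 or mutant sample 355 or 356 (adjusted p from 0.0665 to 0.1257).

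In the mean effect of both lines 4 of the 16 rose and 1 fell, with a median of 0.11 against -0.03 over all probe sets. Limma called 6.87% of all probe sets higher and 7.09% lower there. Besides OASA2, the rises were DAHPS1 and DAHPS2, synthases of the first step of the shikimate pathway, and SK2. DAHPS1 rose by 0.47 (SE 0.125, limma adjusted p = 0.0206), with 0.32 in NC2373 and 0.63 in ND8037. DAHPS2 rose by 0.27 (SE 0.0789, limma adjusted p = 0.0308), with -0.04 in NC2373 and 0.59 in ND8037. Its other probe set gave 0.93 in NC2373 and 0.70 in ND8037, so the probe sets of DAHPS2 disagreed in NC2373. The one that stands for DAHPS2 is, like that of OASA2, of a type that can match several transcripts.

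SK2 rose by 0.28 (SE 0.0876, limma adjusted p = 0.0468), and the fall was that of SK3, a further shikimate kinase gene (-0.27, SE 0.0741, limma adjusted p = 0.0235). The probe set of SK3 is also of a type that can match several transcripts. Across the groups SK2 resembled OASB1, with NC2373 null at 8.40 below wild type at 8.88 and with NC2373 homozygotes at 8.72. OASB1 was chosen for being higher in the homozygotes and SK2 was named for its calls, so this likeness partly restates those choices. OASA2 stayed called without any one of the 11 arrays. The call of DAHPS1 ended without NC2373 homozygote sample 117, ND8037 homozygote sample 123 or ND8037 null sample 158 (adjusted p from 0.0503 to 0.1266). Those of DAHPS2 and SK2 ended with 8 of the 11 left out in turn (adjusted p from 0.0586 to 0.1096 and from 0.0658 to 0.2149). The call of DAHPS2 also ended when no other group was fitted (0.0532), and that of SK2 with all arrays quantile-normalized together (0.0595). That of SK3 ended with 6 of the 11 (adjusted p from 0.0509 to 0.0803).

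By line, NC2373 had 1 fall among the 16, that of SK3 (-0.38, limma adjusted p = 0.0465), and no rise, where limma called 3.58% of all probe sets lower and 4.07% higher. In ND8037 there were 3 rises and no fall, where 4.40% were called higher and 4.68% lower. These were DAHPS1 (limma adjusted p = 0.0307), DAHPS2 (limma adjusted p = 0.0056) and MTR1, a gene placed in the list by its symbol, for which the reference used here gives no product. MTR1 stood at 0.39 in ND8037 (SE 0.105, limma adjusted p = 0.0332) and at -0.24 in NC2373 (limma adjusted p = 0.2592). Calls of DAHPS1 and MTR1 in ND8037 each ended with 5 of its 6 arrays left out in turn (adjusted p from 0.0517 to 0.1146 and from 0.0721 to 0.1185), and that of SK3 in NC2373 with 4 of 5 (adjusted p from 0.1023 to 0.1930). When no other group was fitted the calls of MTR1 (0.0511) and SK3 (0.1258) ended, and that of MTR1 ended with joint quantile normalization too (0.0615).

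**Figure D4:**
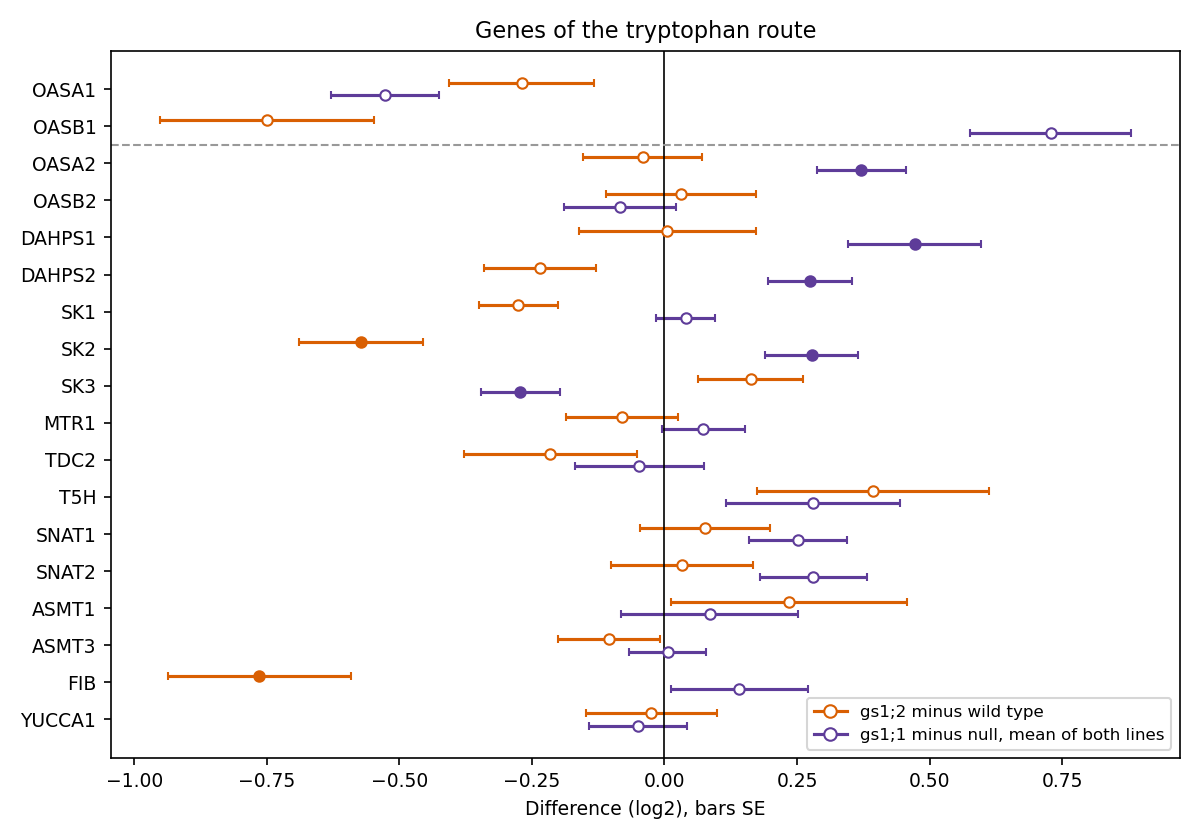
Difference (log2, points) with its SE (bars) for OASA1 and OASB1, above the dashed line, and the 16 other genes of the tryptophan route, in the gs1;2 mutant against wild type and in the mean of both gs1;1 lines. Filled points among the 16 were called by limma at an adjusted p under 0.05, and the points of OASA1 and OASB1 carry no mark of a test.

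Of 8 measured genes that use tryptophan, limma called FIB in the gs1;2 mutant, where it called 4.03% of all probe sets, and none in the mean effect of both lines, where it called 14.0%. Counts this small in a list of 8 are not read as a result about these genes. The tryptophan decarboxylase gene TDC2 stood at -0.22 in the gs1;2 mutant and -0.05 in the mean effect, and T5H, the hydroxylase that makes serotonin, at 0.39 (SE 0.219, limma adjusted p = 0.3507) and 0.28 (SE 0.164, limma adjusted p = 0.2958). YUCCA1, an auxin synthesis gene acting after FIB, stood at -0.03 and -0.05. It was dim, as were SNAT2, ASMT1 and ASMT3 of the 8, with group means between 2.74 and 5.01.

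Other enzymes that take the amide of glutamine were represented by 3 genes. CARA, the small subunit of carbamoyl phosphate synthetase, stood at -0.28 in the gs1;2 mutant (limma adjusted p = 0.1130), by a probe set that can match several transcripts. Another CARA probe set, of lower signal, stood at -0.51 (limma adjusted p = 0.0102). The dimmest CARA probe set stood at 3.65 in wild type and 3.30 in the mutant. By its brightest probe set, the glutamate synthase gene Fd-GOGAT stood at -0.05 in the gs1;2 mutant and at 0.15 in the mean effect and was called in neither. GLT2, another glutamate synthase gene, rose in the mean effect by 0.67 (SE 0.213, limma adjusted p = 0.0476) and stood at -0.31 in the gs1;2 mutant (limma adjusted p = 0.6123). That call ended without any one of 10 of the 11 arrays (adjusted p from 0.0630 to 0.2854), the exception being NC2373 homozygote sample 117, and with limma's trend and robust options (0.0584). Without NC2373 homozygote sample 118 the difference was 0.35. GLT2 was dim, at 4.11 in wild type, and its highest group mean was 5.03, in NC2373 homozygotes. The setting with only probe sets of a mean signal of at least 5 left GLT2 out, so its call was not tested there.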

How the data were processed

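The deposited table holds 1 value on the log2 scale for each of 57381 probe sets and 17 samples, made by the authors with RMA, as the submitters' processing notes name it. Which program ran RMA is not given in the sources used here, nor is whether the ND8037 arrays were normalized apart, which is inferred from their signal distribution. RMA gives no detection call, so a low signal is not a statement on presence.

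Here 123 Affymetrix controls were left out and no filter on signal was used. A linear model of 6 group means was fitted to the 17 arrays with limma 3.58.1 under R 4.3.3 (residual degrees of freedom 11, prior 3.83). Tests were two-sided, with Benjamini-Hochberg adjustment across 57258 probe sets, and a call is an adjusted p under 0.05. The number of arrays limits the precision. The fit was also run on simulated data with independent normal errors and shifts larger than the differences of the pair in the mutants. That run says nothing on smaller shifts, and its outcome is not reported here.

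Genes were named through the platform annotation and a RefSeq gene table (assembly ASM3414082v1), in which all 22436 probe sets with 1 listed gene were found. Of several probe sets of a gene, the one with the highest mean stands for it. The members and gene lists were chosen with earlier results of these data known. Lists were matched by symbol and synonym, and genes that did not match are not analysed here. Named were the paralogs, up to 4 called members of each list, and the 5 genes most like each member with a mean of at least 5. SK1, TDC2, T5H, YUCCA1, CARA and Fd-GOGAT are further examples, chosen after their values were seen. Alternatives were joint quantile normalization, a filter on dim probe sets, a fit of the compared groups alone, limma's trend and robust options, and leaving out each array. Plots used Python 3.11.15 and matplotlib 3.10.9.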

Additional observations from a re-analysis of the deposited data

Results flagged for a closer look

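OASB1 stood on opposite sides of its controls in the glutamine synthetase mutants: every gs1;2 sample lay below the wild type mean and every homozygote of the other lines above the mean of its null. The effects were -0.75 in that mutant, 0.73 in NC2373 and 0.73 in ND8037, so that it differed from NC2373 by -1.48 and from ND8037 by -1.48. SK2 had the same opposition, with -0.57 against 0.32 and 0.24 in the lines (differences of -0.89 and -0.81). SK3 had the reverse, with 0.16 against -0.38 and -0.16 (0.55 and 0.32). FIB and DAHPS2 stood on opposite sides in that mutant and ND8037, with differences of -1.19 and -0.82. For DAHPS2 this holds for the brighter probe set, while the other gave 0.06 in that mutant, 0.93 in NC2373 and 0.70 in ND8037. None of these differences between mutants was tested, and the ND8037 values come from another array set. For OASB1 in NC2373 the side depended on the control. Its NC2373 null, at a mean of 9.03, lay below every wild type sample. The NC2373 homozygotes, at 9.76, lay inside the wild type range and below the wild type mean of 9.93. OASB1 was chosen for being higher in the homozygotes of both lines, so that side of its opposition was set by the choice. Only OASA1, OASB1, OASA2, OASB2, DAHPS1, DAHPS2, SK2, SK3 and FIB were looked at for opposite sides. Of these, DAHPS1, DAHPS2, SK2, SK3 and FIB had been named for their calls, so their flags partly restate those calls. No group held enough samples to look for a sample far from the others.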

How the results depend on the processing

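The differences of OASA1 and OASB1 kept their direction in all 16 values under another setting and in every value with 1 array left out. OASB1 in gs1;2 was called with only probe sets of a mean of at least 5 tested (-0.75, limma adjusted p = 0.0398), and not under the other settings (adjusted p from 0.0525 to 0.1210). With 1 array left out, it ran from -0.95 to -0.59 (adjusted p from 0.0157 to 0.1663) and OASA1 from -0.37 to -0.20 (0.2105 to 0.6461). In NC2373, OASA1 ran from -0.85 to -0.69 and OASB1 from 0.60 to 0.94, and in ND8037 from -0.44 to -0.10 and from 0.58 to 0.85. Where 1 NC2373 homozygote array was left, it was assumed to vary like the other groups.

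Limma called 2310 probe sets in gs1;2, 615 when no other group was fitted, and between 555 and 2817 with 1 array left out. In the mean gs1;1 effect it called 7991, and between 5260 and 7600 with 1 array left out. Tryptophan route genes called in gs1;2 numbered 2, then 1 when no other group was fitted, and 0 to 3 with 1 array left out (0 without wild type sample 627 or 628 or mutant sample 356). In gs1;1 they numbered 5, and 1 to 5 with 1 array left out. The cause of these changes was not tested. Settings for single route genes and GLT2 were added after seeing the data. No other probe set stood for OASA1 or OASB1, so that alternative was not run. No paired analysis was possible because the sample numbers differ between all groups.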
